A study of Solanum lycopersicum with 14 samples.

Results

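Among 34725 tomato genes measured in the fruit wall, 82 stood much higher at 47 than at 35 DPA in the red-fruited wild type M82 and also in its yellow-fruited mutant n3122, where DPA is the fruit age in the labels, in this field days post anthesis. The 82 genes were chosen by their levels in FPKM, a count of fragments relative to the length of the transcript and the size of the library. The rule asked for at least 20 FPKM in M82 at 47 DPA, a ratio of 47 to 35 DPA of at least 4 in M82 and at least 2 in n3122, and an n3122 level of at least 0.5 of M82 at 47 DPA. Each ratio had 1 FPKM added to both values. The 82 are part of the 522 genes that met the 2 criteria for M82 alone, here called induced. Of the other 440 induced genes, 430 stood under 0.5 of M82 in the mutant at 47 DPA, and 10 met that level but had a ratio under 2 in the mutant. The working description of the 82 as on time in the mutant is a description of 47 DPA, where it holds by the rule.

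RNA of the pericarp, the flesh of the tomato, was sequenced from M82 at 35, 47 and 54 DPA and from n3122, a mutant in the M82 background, at 35, 47, 54 and 60 DPA. All plants grew in a greenhouse, and the labels used here name no mutated gene. Each of the 7 groups had 2 libraries, for which the authors' deposited tables give 1 FPKM value per gene and group, so no SD stands beside a level and overlap between libraries cannot be shown. The labels do not say whether the 2 libraries came from separate plants, so the authors' p-values may measure technical spread only.

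A gene was called where the q-value (an adjusted p-value) in the authors' deposited table was at or under 0.05. Fold changes are log2((n3122 + 1) / (M82 + 1)), which understates the change of low genes. Values given in a row follow fruit age, from 35 to 54 DPA for M82 and from 35 to 60 DPA for n3122.

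Tomato is a climacteric fruit: at the onset of ripening it makes a burst of the gas ethylene, and ethylene receptors, the membrane protein EIN2 and transcription factors of the EIN3 family carry the signal to genes of colour, softening and aroma. Regulators such as RIN and NOR act with ethylene. Other genes change with fruit age or with other hormones, among them abscisic acid.

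EIN2 (Solyc09g007870) was called lower in n3122 in all 4 comparisons of the authors' deposited tables, with 34.97 FPKM in the wild type at 47 DPA against 2.50 in the mutant. RIN, a MADS-box regulator of ripening, stood at 733 FPKM against 7.23 at that age, and PSY1, the fruit phytoene synthase, at 4270.2 against 88.04. Over all genes at or above 1 FPKM in both groups, the median log2 fold change lay between -0.05 and 0.00 in the 4 comparisons. Markers of green plastids moved with genotype and with fruit age. The summed level of 5 genes (PSBP, RBCS1, CAB3C, CAB7 and CAB4) was 1242 FPKM in M82 against 2098 in n3122 at 35 DPA. It was 166 against 658 at 47 DPA, and 53.2 against 455 at 54 DPA. For 4 markers of epidermis and cuticle (CD1, CD2, CER6 and SHN3) the sum was 424 FPKM in M82 against 633 at 35 DPA. At 47 DPA that sum was 120 FPKM in M82, with 1 of the 4 listed at 0, against 170.0 in n3122. At 54 DPA it was 145 against 165. The part of these markers in the results was not tested. In bulk tissue, fewer cells of a type and less RNA per cell cannot be told apart.

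The 82 genes had a median level of 15.6 FPKM in M82 at 35 DPA, 107 at 47 DPA and 124 at 54 DPA. In n3122 the medians were 9.97 FPKM at 35 DPA, 73.3 at 47 DPA, 69.6 at 54 DPA and 48.9 at 60 DPA. The median ratio of 47 to 35 DPA was 5.60 in M82 and 5.96 in n3122, and 54 of the 82 genes reached in n3122 the ratio of 4 that the rule asked of M82 alone. These ratios chose the genes, join tables that the authors scaled separately, and carry no test. For 3 of the 82, Solyc02g091850, Solyc04g072620 and Solyc10g019050, the tables list 0 in both genotypes at 35 DPA, which may be an estimate that failed. No fold over 35 DPA is printed for them singly. With 1 FPKM added they do count in these median ratios, in the 54 genes and in the later count of genes at 60 DPA.

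**Figure D1:**
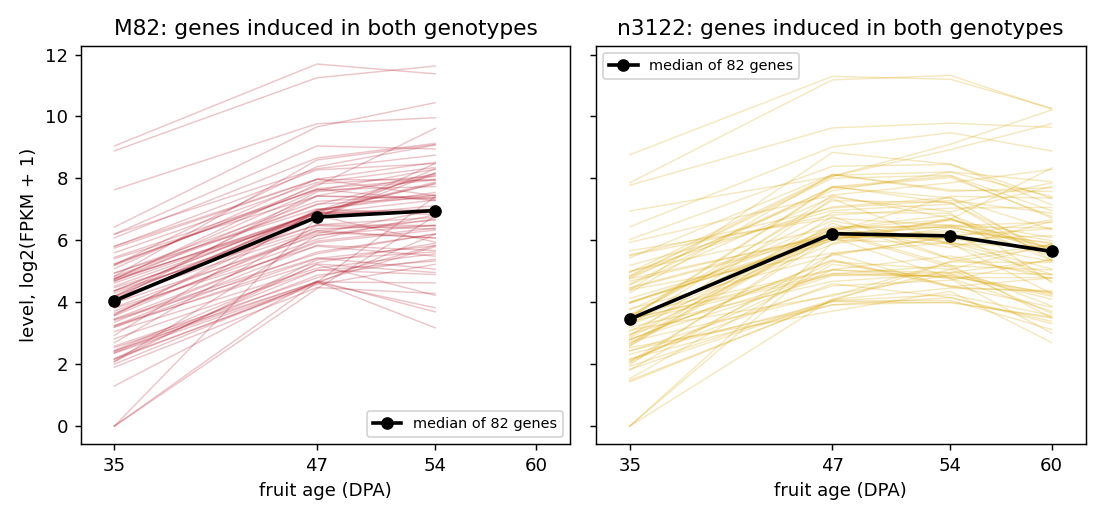
Levels of the 82 genes by fruit age in DPA, as log2(FPKM + 1), in M82 and in n3122, with 1 thin line per gene and the median in black. The median is 107 FPKM at 47 DPA and 124 at 54 DPA in M82, and 73.3 at 47 DPA and 48.9 at 60 DPA in n3122.

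Among the cell wall genes, XTH3 (Solyc03g093130) encodes a xyloglucan endotransglucosylase/hydrolase, an enzyme family that cuts and rejoins the xyloglucan chains of the wall. It closed a run of 4 members on chromosome 3, with Solyc03g093080, Solyc03g093110 and Solyc03g093120, and the other 2 identifiers in that stretch stood at 0.125 FPKM or less in every group. The symbol was attached after the values were seen, and the check of names, which is by gene order, does not separate close neighbours. Genes that lie side by side may be copies that share reads, so their separate levels are uncertain.

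XTH3 went through 6.64, 126 and 186 FPKM in M82 and through 2.96, 75.3, 33.97 and 13.7 in n3122. Solyc03g093120 went through 15.2, 126 and 175 FPKM in M82 and through 6.51, 161, 56.97 and 28.9 in n3122. The next gene, Solyc03g093110, stood at 8.20, 48.2 and 72.9 FPKM in the wild type and at 3.22, 67.4, 26.4 and 12.05 in the mutant. At 47 DPA the mutant was above M82 for these 2 unnamed genes and below it for XTH3, with none of the 3 differences called. Solyc03g093080, the most abundant of the run, stood at 15.9, 188 and 246 FPKM in the wild type and at 10.5, 214, 146 and 49.2 in the mutant. In n3122 all 4 were highest at 47 DPA and lower at each later age, whereas in M82 all 4 were higher at 54 than at 47 DPA.

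At 54 DPA, in groups that the rule did not use, all 4 genes of the run were called lower in n3122. The log2 fold changes were -2.42 for XTH3, -1.60 for Solyc03g093120, -1.43 for Solyc03g093110 and -0.75 for Solyc03g093080. The q-value in the authors' deposited table was 0.000377 for the first 3, the smallest it holds, and 0.00971 for the last. All 4 were also called lower in n3122 at 60 DPA than in M82 at 47 DPA, with log2 fold changes from -3.05 for XTH3 to -1.86 for Solyc03g093080.

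**Figure D2:**
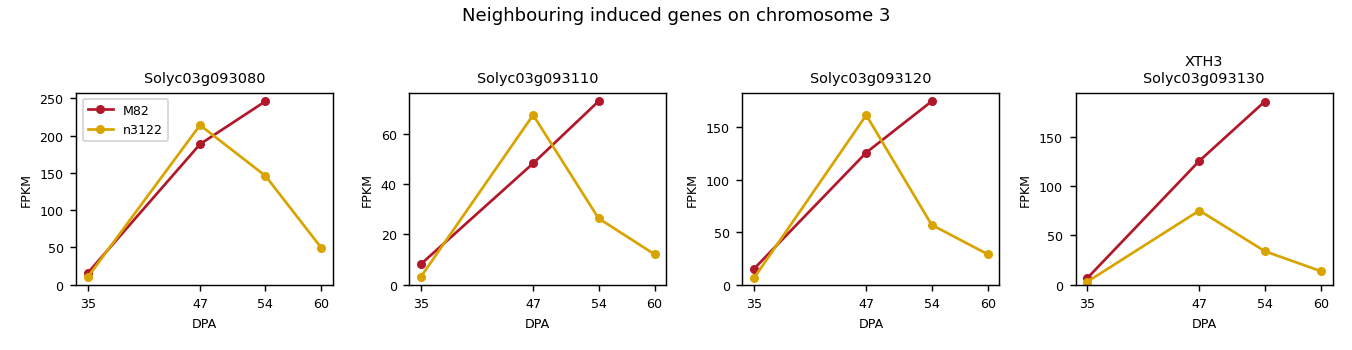
FPKM per group against fruit age in DPA for the 4 neighbouring genes on chromosome 3, M82 in red and n3122 in yellow, each point 1 value for 2 libraries. In n3122 each gene stands highest at 47 DPA and lowest after it at 60 DPA, at 13.7 FPKM for XTH3.

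None of the 12 cell wall genes on the list with a checked name was a member, and XTH3 is not on that list. With 7 of the 12 induced, and 82 members among all 522 induced genes, nothing is read from this count. Of these, PG2A, PL, TBG4, EXP1, CEL2, MAN4 and XTH5 were among the other induced genes. PG2A, the fruit polygalacturonase that degrades pectin, stood at 3598 FPKM in the wild type at 47 DPA and at 14.9 in the mutant.

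Of the members with a symbol, 5 encode transcription factors, and 4 of these symbols were attached after the values were seen. ERF.E1 (Solyc09g075420), which the reference table lists as ERF2, belongs to the ethylene response factor family, members of which act downstream of EIN2 and the EIN3 proteins. It went through 17.4, 111 and 60.5 FPKM in M82 and through 14.97, 66.5, 74.95 and 24.7 in n3122. Its genotypes were not called different at 54 DPA (log2 fold change 0.30, q = 0.342 in the authors' deposited table), and the mutant at 60 DPA was called lower than M82 at 47 DPA (-2.06). ERF84 (Solyc04g071770), another gene of the family, stood at 6.07, 31.8 and 28.8 FPKM in the wild type and at 4.36, 22.1, 25.2 and 41.2 in the mutant. It was called in none of the 4 comparisons, and its highest level was that of the oldest mutant fruit.

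WRKY genes encode transcription factors known for roles in defence and senescence. How many WRKY genes were measured or induced was not counted. WRKY81 (Solyc09g015770) went through 27.6, 143 and 165 FPKM in M82 and through 31.2, 83.8, 53.1 and 96.7 in n3122, and was called lower at 54 DPA (log2 fold change -1.62, q = 0.000377 in the authors' deposited table). WRKY80 (Solyc03g095770) stood at 10.01, 59.9 and 79.4 FPKM in the wild type and at 9.92, 31.8, 30.2 and 40.05 in the mutant. Although it met the rule, WRKY80 was called lower at 47 DPA (-0.89, q = 0.0412 in the authors' deposited table), and again at 54 DPA (-1.37, q = 0.000377). WRKY46 (Solyc08g067340), also a member, stood at 2.74, 21.2 and 18.4 FPKM in the wild type and at 3.99, 15.2, 14.8 and 10.5 in the mutant. It was not called at 35, 47 or 54 DPA, and the mutant at 60 DPA was called lower than M82 at 47 DPA (-0.90, q = 0.0388 in the authors' deposited table).

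Solyc08g081550 is one of the adjacent pair ACS1A and ACS1B, which encode enzymes that make ACC, the precursor of ethylene; which of the pair it is could not be settled. It went through 12.9, 55.2 and 43.9 FPKM in M82 and through 12.8, 44.6, 69.8 and 82.1 in n3122, so that the mutant was the lower at 47 DPA and the higher at 54 DPA. The mutant was called higher at 54 DPA (log2 fold change 0.66, q = 0.0152 in the authors' deposited table). Adjacent genes such as this pair may share reads, so the separate level of Solyc08g081550 is uncertain. The ripening-related synthases ACS2 and ACS4 were among the other induced genes. At 47 DPA, ACS2 stood at 369 FPKM in the wild type against 12.01 in the mutant, and ACS4 at 105 against 1.24.

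AOX1A (Solyc08g075540) encodes the alternative oxidase, a mitochondrial enzyme that passes electrons to oxygen without pumping protons. It went through 14.7, 123 and 289 FPKM in M82 and through 9.65, 81.6, 102 and 51.6 in n3122. From 35 to 47 DPA its ratio was 7.88 in M82 and 7.75 in n3122, and at 54 DPA it was called lower in the mutant (log2 fold change -1.50, q = 0.000377 in the authors' deposited table). ER5 (Solyc01g095140) encodes a protein like those of late embryogenesis and was first described in tomato as responsive to ethylene. It stood at 19.7, 121 and 225 FPKM in the wild type and at 23.1, 211, 269 and 104 in the mutant, which was thus above M82 at 35, 47 and 54 DPA. ER5 was not called at 47 DPA (0.79, q = 0.0819 in the authors' deposited table) or at 54 DPA (0.26, q = 0.418).

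**Figure D3:**
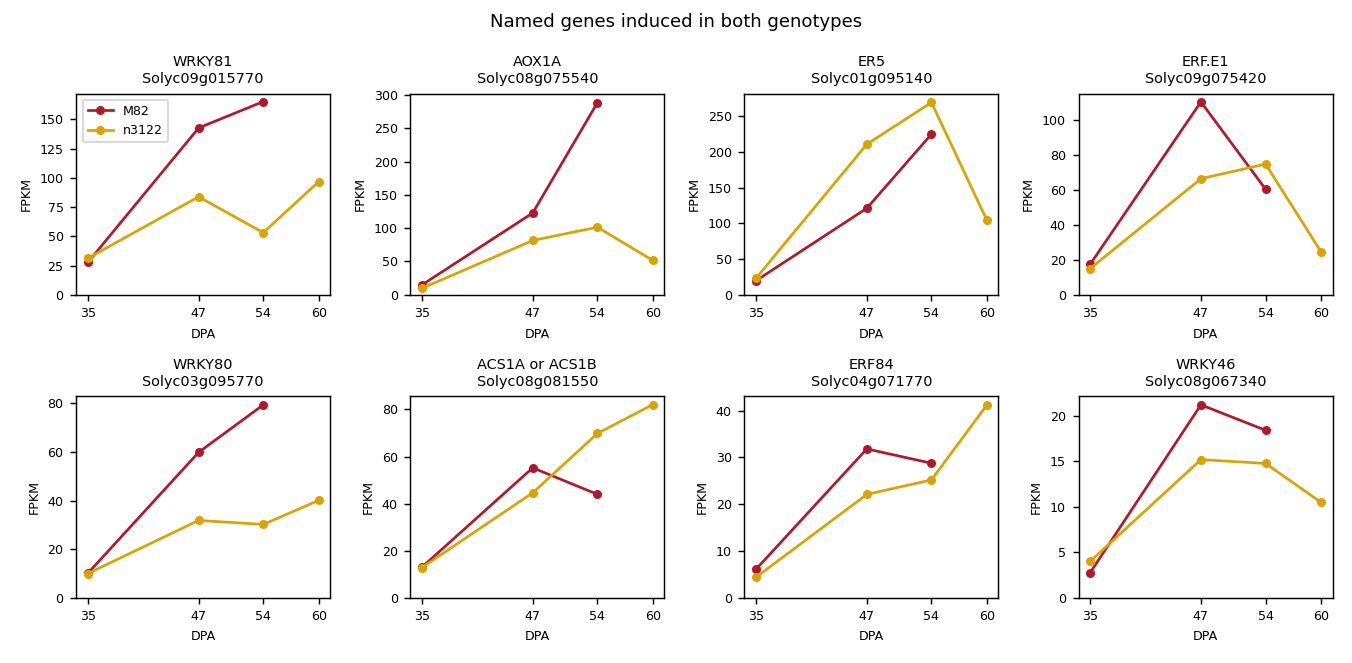
FPKM per group against fruit age in DPA for the 8 named members outside the chromosome 3 run, M82 in red and n3122 in yellow, each point 1 value for 2 libraries. AOX1A, WRKY80 and WRKY81 have M82 above the mutant at 54 DPA, where the mutant is called lower, and ACS1A or ACS1B has the mutant above, called higher.

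Members were 82 of all 522 induced genes. Of 190 listed genes with a checked name, 40 were induced, and of these AOX1A and ERF.E1 alone were members. The 38 others included RIN, NOR, CNR, FUL1 and AP2A of the ripening regulators, PSY1 and Z-ISO of carotenoid synthesis, CHS1 and CHS2 of flavonoid synthesis, and LOXC and AAT1 of aroma synthesis. FUL2, TAGL1 and NCED1, which encodes a key enzyme of abscisic acid synthesis, were not induced by the rule.

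The most abundant members have identifiers only. Solyc10g081170 went through 528, 3308 and 2658 FPKM in M82 and through 433, 2509.6, 2351 and 1228 in n3122. Solyc10g080370 stood at 473, 2432 and 3163 FPKM in the wild type and at 231, 2318, 2568 and 1204 in the mutant. Neither was called at 47 or 54 DPA, and both were called lower in n3122 at 60 DPA than in M82 at 47 DPA (log2 fold changes -1.37 and -0.95). Solyc10g080370 was also called lower in n3122 at 35 DPA (-1.03, q = 0.00823 in the authors' deposited table).

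Solyc07g006280 stood at 198, 868 and 995 FPKM in the wild type and at 219, 791, 879 and 801 in the mutant, and was called in none of the 4 comparisons. Solyc02g062460 went through 85.1, 809.8 and 1393 FPKM in M82 and through 85.6, 517, 712 and 472 in n3122, and was called lower at 54 DPA (-0.97). Solyc03g082370 stood at 66.6, 403 and 559 FPKM in the wild type and at 18.8, 279.7, 196 and 189.8 in the mutant. It was called lower at 35 DPA (-1.77) and at 54 DPA (-1.50), and not at 47 DPA.

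How the members compare between genotypes at 47 DPA is fixed in part by the rule and is given as a description. No member could be under 0.5 of M82, and 15 of the 82 stood above M82. Of 81 tested members, 11 were called lower at 47 DPA and 0 higher in the authors' deposited table, where 9.81% of all 18751 tested genes were called lower and 13.7% higher. The highest ratios of n3122 to M82 were 1.92 for Solyc07g007740, 1.91 for Solyc04g072620, 1.73 for ER5 and 1.55 for Solyc01g057770. The lowest were 0.507 for Solyc02g031710, 0.508 for Solyc09g074270, 0.508 for Solyc02g076710 and 0.510 for Solyc01g065530.

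Just outside that threshold lay Solyc12g013820 at 0.498, Solyc08g007460 at 0.495 and Solyc03g078360 at 0.491, and 134 genes missed this criterion alone. For the ratio of 47 to 35 DPA in M82, Solyc03g006400 was nearest inside at 4.03 and Solyc02g064680 nearest outside at 3.96, with 349 genes missing this criterion alone. For the same ratio in n3122, Solyc03g120980 was nearest inside at 2.07 and Solyc05g011960 nearest outside at 1.95. For the level in M82, Solyc10g019050 was inside at 20.7 FPKM and Solyc07g055990 outside at 19.1 FPKM.

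At 35 DPA, 16 of 78 tested members were called lower in n3122 and 1 higher in the authors' deposited table, where 1.33% of all 18541 tested genes were called lower and 1.91% higher. The level at 35 DPA is part of the rule, so nothing is read from this count. Of the 16, 11 were also called lower at 54 DPA and 3 at 47 DPA, beside 42 and 11 of all 81 members tested at those ages. Such an overlap was not counted over all genes, and nothing is read from it. The 1 member called higher at 35 DPA was Solyc02g076710, with 72.5 FPKM in the wild type against 122 in the mutant. The untested members were the 3 listed at 0 and Solyc02g084310, and at the later ages Solyc10g019050 was the 1 member not tested.

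At 54 DPA, in groups that the rule did not use, 42 of 81 tested members (51.9%) were called lower in n3122 and 7 (8.64%) higher in the authors' deposited table, where 11.5% of all 18796 tested genes were called lower and 18.1% higher. The median log2 fold change was -0.64 over the tested members and -0.02 over all tested genes. At 47 DPA, where the rule fixed it in part, the median over the tested members was already -0.49, with 66 of 81 below 0. Whether the difference grew between the 2 ages was not tested. At 54 DPA, 54 of the 81 stood at or above 0.5 of M82, the level that chose them at 47 DPA, and 27 stood under it. Of all tested genes, 93.3% stood at or above 0.5 of M82. With a minimum absolute log2 fold change of 1, the numbers of members called were 25 lower and 2 higher. The share of all tested genes called at that minimum was not counted. If members are chosen with n3122 at 0.8 or more of M82 at 47 DPA, 30 remain, of which 13 were called lower at 54 DPA and 5 higher, with a median of -0.24.

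**Figure D4:**
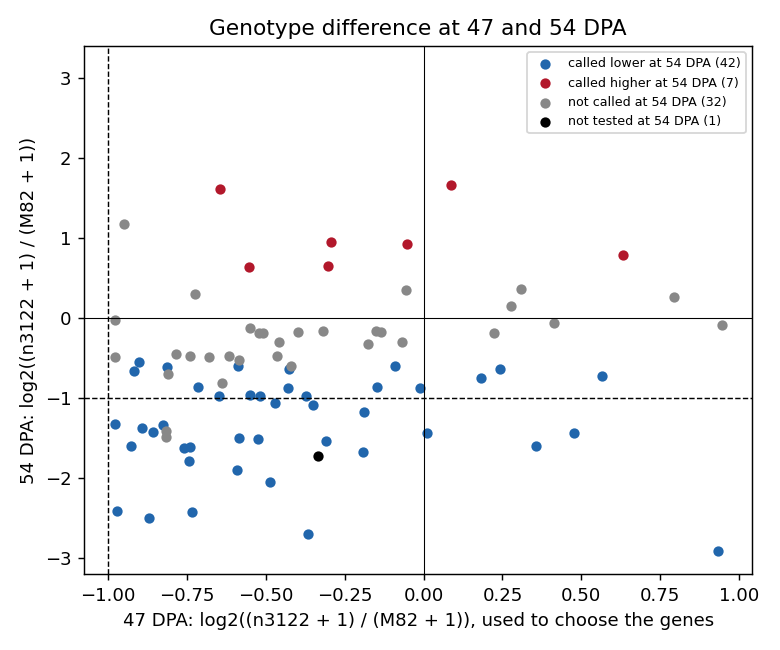
Genotype difference of each member as log2((n3122 + 1) / (M82 + 1)) at 47 DPA, which chose the genes, and at 54 DPA, which did not, coloured by the call in the authors' deposited table at 54 DPA. Dashed lines mark 0.5 of M82; 42 members are called lower at 54 DPA and 7 higher.

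The lowest log2 fold changes at 54 DPA were those of Solyc04g072620, Solyc05g006390, Solyc05g053060 and XTH3. Solyc05g006390 went through 35.4, 216 and 783 FPKM in M82 and through 22.5, 167, 120.2 and 213 in n3122 (log2 fold change -2.69, q = 0.000377 in the authors' deposited table). Its highest value was that of M82 at 54 DPA. Solyc04g072620 stood at 24.1 and 169 FPKM in the wild type at 47 and 54 DPA, and in the mutant at 46.9, 21.7 and 26.6 from 47 to 60 DPA (-2.91, q = 0.034). Solyc05g053060 went through 11.5, 73.2 and 126 FPKM in M82 and through 5.92, 39.6, 21.5 and 19.1 in n3122 (-2.50). Of the 42 genes called lower, M82 was higher at 54 than at 47 DPA in 38, and n3122 was lower at 54 than at 47 DPA in 28. The levels at 54 DPA are those that made the call.

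The 7 members called higher at 54 DPA were Solyc02g031950, Solyc03g113430, Solyc09g065560, Solyc03g120550, Solyc01g057770, the ACS1A or ACS1B gene and Solyc03g118090. Solyc02g031950 went through 33.01, 251 and 173 FPKM in M82 and through 28.1, 267, 549 and 1184 in n3122 (log2 fold change 1.66, q = 0.000377 in the authors' deposited table). Solyc03g113430 stood at 1.46, 24.9 and 11.9 FPKM in the wild type and at 1.78, 15.5, 38.4 and 37.9 in the mutant (1.61). Both stood higher at 54 than at 47 DPA in n3122 and lower in M82. Solyc03g120550 stood at 36.4, 200.4 and 155 FPKM in the wild type and at 27.02, 193, 294 and 169.6 in the mutant (0.92). The log2 fold change was 0.95 for Solyc09g065560, 0.79 for Solyc01g057770 and 0.64 for Solyc03g118090. M82 was lower at 54 than at 47 DPA in all 7. The levels at 54 DPA made the call and the rule asked for a high M82 level at 47 DPA, so this is a description.

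Of 436 tested genes among the other induced ones, 369 were called lower at 54 DPA and 4 higher, and their median log2 fold change was -1.98 against -0.64 for the members. Among them 82 stood at or above 0.5 of M82. The sets were split by the level of n3122 at 47 DPA, so their order at 54 DPA is a description and was not tested.

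**Figure D5:**
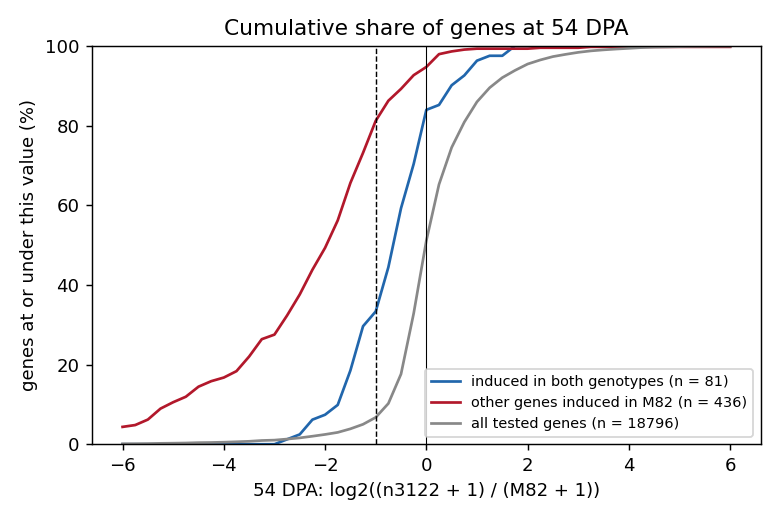
Cumulative share of tested genes, in percent, by log2((n3122 + 1) / (M82 + 1)) at 54 DPA for the members, the other genes induced in M82 and all tested genes, with a dashed line at 0.5 of M82. The members, with a median of -0.64, lie between the other induced genes, at -1.98, and all tested genes, at -0.02.

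Ratios between ages, here and in the rule, set tables that the authors scaled separately side by side. Differences between ages were not tested in either genotype. The rule also asked the members, and not the others, to be high in n3122 at 47 DPA, so a lower ratio to that age and an earlier highest level in the members are fixed in part by the choice of genes. The values that follow are a description from which no difference between the sets is read. From 47 to 60 DPA the median log2 ratio in n3122 was -0.51 for the members and 1.01 for the other induced genes, against -0.01 for all genes at or above 1 FPKM at both ages. Of the 82 members, 24 stood at 60 DPA at 0.5 of their 47 DPA level or less, and 8 at 2 times that level or more. Of the 440 other induced genes, 17 stood at 0.5 or less and 223 at 2 times or more, and of all genes at or above 1 FPKM at both ages, 6.49% and 3.31% did. The highest level in n3122 was at 47 DPA for 32 members, at 54 DPA for 36 and at 60 DPA for 14. Of the 440 others it was at 47 DPA for 22, at 54 DPA for 82 and at 60 DPA for 311. In M82 the highest level was at 54 DPA for 58 of the 82 members and for 183 of the 440 others.

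In the oldest mutant fruit, 45 of 81 tested members were called lower at 60 DPA than in M82 at 47 DPA and 4 higher in the authors' deposited table, where 7.07% of all 18823 tested genes were called lower and 7.93% higher. M82 at 47 DPA is also a group of the rule, which asked for a high level there, so this count is a description. The 4 called higher were Solyc02g031950 (log2 fold change 2.29), Solyc07g007740 (2.11), Solyc04g008210 (1.07) and Solyc11g012700 (0.90). At 60 DPA, 74 of the 82 members stood in n3122 at 2 times their 35 DPA level or more, as did 294 of the 440 other induced genes and 5.85% of all genes at or above 1 FPKM at both ages. The ratio of 47 to 35 DPA in n3122 chose the members, so nothing is read from this count.

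The lowest ratio of 60 to 47 DPA in n3122 was that of Solyc01g079660, which went through 10.8, 78.4 and 66.2 FPKM in M82 and through 6.24, 77.8, 35.8 and 10.3 in n3122. At 47 DPA its log2 fold change between genotypes was -0.01, and at 54 DPA it was called lower in n3122 (-0.87). It was followed by Solyc03g093120, Solyc03g093110 and XTH3 of the chromosome 3 run. Solyc01g057770, one of the 7 called higher at 54 DPA, stood at 13.2, 76.03 and 66.6 FPKM in the wild type and at 11.1, 118, 116 and 23.8 in the mutant.

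The highest ratios of 60 to 47 DPA in n3122 were those of Solyc02g091850, Solyc02g031950, Solyc10g019050 and Solyc02g076710. Solyc02g091850 stood at 105 and 285 FPKM in the wild type at 47 and 54 DPA, and in the mutant at 59.2, 101 and 322 from 47 to 60 DPA, and was called in none of the 3 comparisons that tested it. Solyc10g019050, which was not tested, stood at 20.7 and 109 FPKM in the wild type and at 16.2, 32.3 and 57.7 in the mutant at those ages. Solyc02g076710 went through 72.5, 527 and 494 FPKM in M82 and through 122, 267, 486 and 871 in n3122. It was called lower at 47 DPA (-0.98) and was not called at 54 DPA (-0.02).

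Other members also lay close together, with identifier numbers at most 50 apart and the same limit on their separate levels. Solyc12g057150 went through 24.4, 172 and 281 FPKM in M82 and through 8.55, 173, 104 and 39.7 in n3122. Its neighbour Solyc12g057160 stood at 17.2, 115 and 121 FPKM in the wild type and at 4.97, 92.8, 41.3 and 28.3 in the mutant. Both were called lower at 54 DPA (log2 fold changes -1.43 and -1.53). On chromosome 10, the neighbours Solyc10g085810 and Solyc10g085830 differed in their call at 54 DPA: the first was not called (-0.48, q = 0.1 in the authors' deposited table), and the second was called lower (-0.62, q = 0.0306). By chromosome, 16 members lay on chromosome 3, 13 on chromosome 2 and 10 on chromosome 10, which are 19.5%, 15.9% and 12.2% of the members, against 10.7%, 10.9% and 6.50% of the genes tested at 47 DPA on chromosomes 1 to 12. Of the other induced genes, 13.7%, 12.8% and 6.41% lay on chromosomes 3, 2 and 10. Chromosome 1 held 7.32% of the members against 13.1% of the tested genes, and chromosome 11 held 1.22% against 6.76%. On chromosome 3, 4 of the 16 members belong to the run with XTH3.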

How the data were processed

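Per the submitters' processing notes, the tools were CASAVA, TopHat2 2.0 and Cufflinks. No source used here gives the genome build or the gene annotation. The authors deposited 4 tables of 34725 genes, each with 1 FPKM value per group for its 2 libraries together, a test statistic (a score), a p-value and a q-value per gene. Each deposited q-value was within 5.26e-07 of the Benjamini-Hochberg adjustment over the genes tested. M82 at 47 DPA stands in 2 tables, with a median ratio of 0.960 between them, so tables are scaled separately and calls come from 1 table. Genes whose statistic was 0 and p-value 1 were taken as untested. The depth of the libraries is unknown, because no counts are given.

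Tables were joined by gene identifier, the rule was applied in Python 3.11.15 with pandas 2.3.3, after a test on simulated tables, and lists are described by counts and medians only. Members and lists were chosen with earlier results of these data known. Names are pairs of symbol and identifier from general knowledge, kept where the reference table (assembly SLM_r2.1) has that symbol on the same chromosome within 5% of the same place in gene order: 190 of 265 listed pairs. The names XTH3, ER5, ERF84, WRKY46, WRKY80, WRKY81 and ACS1A or ACS1B were added after the values were seen, with the same check. Genes were named if a checked symbol was known, by fixed numbers of extremes at 47, 54 and 60 DPA, or as nearest to a threshold; the members called higher, the neighbours and the names added were chosen after their values were seen. Alternatives changed the pseudocount, table scaling, thresholds of the rule, q-value, minimum fold change and low-value filter.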

Additional observations from a re-analysis of the deposited data

How the results depend on the processing

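No paired analysis was possible because the tables give 1 value per group, so replicates cannot be blocked or left out. The rule gave 82 members as deposited and 30 with n3122 at 0.8 or more of M82 at 47 DPA; the other 6 alternatives gave 59 to 94. At 54 DPA, a minimum absolute log2 fold change of 1 left 25 members called lower and 2 higher, with no share of all tested genes counted at that minimum. With the 30 members, 13 were called lower, 23 stood at or above 0.5 of M82, and the median was -0.24, on fewer genes by construction. Over the other alternatives run, the members called lower at 54 DPA were 32 to 45, those called higher 5 to 8, and the median lay between -0.65 and -0.58. The 32 lower and the 5 higher were called at q at or under 0.01. The share of all tested genes was not counted at that q-value or with the low-value filter. These counts therefore do not show whether the contrast with all tested genes holds there. Those at or above 0.5 of M82 were 53 to 60. In the comparison of 60 DPA mutant fruit with 47 DPA wild type, 33 to 45 were called lower and 3 to 4 higher. The 33 were called at q at or under 0.01, and a minimum absolute log2 fold change of 1 left 38 lower. The share of all tested genes was not counted at either setting. The missing read depth limits what can be said of low genes.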
